A study of Homo sapiens with 2 samples.

Results

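The cells described here are PC9 cells with the highest levels of CXCL8, CXCL1, CXCL2, CXCL3 and INHBA, called high-score cells below. Each cell was given a score, the summed unique molecular identifiers (UMIs, each standing for 1 captured RNA molecule) of these 5 genes divided by all gene UMIs of that cell. The 1015 cells in the top 10% of this score, of 10142 cells that passed the quality filter, are the high-score cells. They were compared with the 5071 low-score cells of the bottom 50%, and 4056 cells lie between. Because the cells were selected on these measured values, levels of the 5 genes describe the selection and were not tested. All other genes were read from the same cells of the same culture, so their differences are given as descriptions too.

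PC9 is a human lung adenocarcinoma line whose growth depends on mutated, constantly active EGFR. Its cells were, per the labels, transduced with lentivirus carrying single guide RNAs (sgRNAs) in polybrene at 8 ug/ml, at an infection rate of about 40%, and puromycin at 1 ug/ml removed the others. Per the labels this was a knockout, yet dCas9 (which binds DNA and does not cut it) is named too, so the kind of perturbation is uncertain, as is the day of harvest (day 7 or day 8). The matrix holds 36 sgRNAs, against ATF4, PGAM1, MYC, CTNNB1, JUN and CTCF and as non-targeting controls, which share the line, the virus and the selection. All cells come from 1 pooled culture, read as 1 gene expression library and 1 sgRNA capture library, so there is no replicate culture of any condition.

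CXCL8 (interleukin 8), CXCL1, CXCL2 and CXCL3 are small secreted chemokines that draw neutrophils to inflamed tissue through the receptors CXCR1 and CXCR2. INHBA encodes a subunit of activin A, a secreted ligand of the TGF-beta family that acts through SMAD2 and SMAD3. Chemokine genes of this kind are classical targets of the transcription factor NF-kB, which is held in the cytoplasm by inhibitors of the IkB family, enters the nucleus after signals such as TNF or interleukin 1, and switches on its own inhibitors NFKBIA and TNFAIP3. In lung epithelium this programme is part of the response to microbes and injury.

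The sequences before the starts of the 4 chemokine genes are shown because they carry the letters that NF-kB is known to recognise. Those of CCL20 and TNFAIP3, which are among the higher genes described below, are shown too. CCL20 had the largest ratio of high- over low-score cells. PTX3, IL17C, IL1B and TNF had larger ratios than TNFAIP3 and are not shown. The window of PTX3 holds an NF-kB form, and those of IL1B and TNF do not. Each sequence shown is the 250 bases before the gene's start, 5′ to 3′ on the gene's strand, from RefSeq (GRCh38.p14). Capitals mark stretches that match an NF-kB form. The windows are chr4:73740319-73740568 (plus strand) for CXCL8, chr4:73869143-73869392 (plus) for CXCL1, chr4:74099196-74099445 (minus) for CXCL2, chr4:74038690-74038939 (minus) for CXCL3, chr2:227813592-227813841 (plus) for CCL20 and chr6:137867009-137867258 (plus) for TNFAIP3.
CXCL8: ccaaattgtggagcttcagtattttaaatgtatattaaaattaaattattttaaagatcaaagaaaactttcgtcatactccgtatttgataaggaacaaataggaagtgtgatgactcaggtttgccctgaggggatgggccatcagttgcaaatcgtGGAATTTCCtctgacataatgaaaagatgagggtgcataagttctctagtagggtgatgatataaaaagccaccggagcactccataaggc
CXCL1: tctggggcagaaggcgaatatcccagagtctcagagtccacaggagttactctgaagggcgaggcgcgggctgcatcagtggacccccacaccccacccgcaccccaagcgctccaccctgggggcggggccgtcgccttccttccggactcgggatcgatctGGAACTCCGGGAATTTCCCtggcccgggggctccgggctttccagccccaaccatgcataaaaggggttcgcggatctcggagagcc
CXCL2: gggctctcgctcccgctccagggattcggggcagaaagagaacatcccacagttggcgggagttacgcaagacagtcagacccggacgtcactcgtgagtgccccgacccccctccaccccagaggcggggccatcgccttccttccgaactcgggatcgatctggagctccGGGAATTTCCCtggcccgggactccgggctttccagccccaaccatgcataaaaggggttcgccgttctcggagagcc
CXCL3: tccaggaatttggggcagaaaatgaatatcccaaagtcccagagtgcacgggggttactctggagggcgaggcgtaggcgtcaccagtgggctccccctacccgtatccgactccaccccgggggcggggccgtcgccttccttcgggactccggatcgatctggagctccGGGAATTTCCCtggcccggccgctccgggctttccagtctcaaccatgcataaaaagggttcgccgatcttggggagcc
CCL20: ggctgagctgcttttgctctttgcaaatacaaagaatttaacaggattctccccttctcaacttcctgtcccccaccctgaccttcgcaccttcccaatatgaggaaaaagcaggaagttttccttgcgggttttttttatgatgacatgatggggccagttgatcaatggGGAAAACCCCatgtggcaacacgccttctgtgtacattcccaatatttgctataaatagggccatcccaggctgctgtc
TNFAIP3: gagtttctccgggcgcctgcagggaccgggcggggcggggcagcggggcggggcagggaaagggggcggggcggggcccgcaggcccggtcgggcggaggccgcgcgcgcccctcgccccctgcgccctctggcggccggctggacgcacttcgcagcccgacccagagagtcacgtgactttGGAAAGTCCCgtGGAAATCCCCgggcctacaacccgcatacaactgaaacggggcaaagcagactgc

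Motifs were searched on both strands as the NF-kB consensus, its palindromic form GGANTTCC, the form GGANTTTCC chosen after the CXCL8 sequence was seen, AP-1 as TGANTCA and C/EBP as TTGCNNAA, and the 3 NF-kB forms can overlap one another. CXCL8 has 1 NF-kB stretch, from 91 to 83 bases before its start, and 1 AP-1 match from 137 to 131 bases before it. CXCL1, CXCL2 and CXCL3, which lie beside CXCL8 on chromosome 4, each have the same match GGGAATTTCC, starting 79, 78 and 79 bases before the start. TNFAIP3 has 2 NF-kB stretches and CCL20 has 1. Windows of some other genes that were higher in high-score cells, picked by name with earlier results of these data known, were searched too. Those of NFKBIA, ICAM1, BIRC3, NFKBIZ, PTX3 and LTB hold at least 1 NF-kB stretch, and those of TNF, IL1B, SOD2 and TNFAIP2 hold none. Because these genes were picked, their matches give no share to set against that of all windows. Only 1 window per gene was searched, so a missing match says nothing of other starts of that gene. INHBA, whose window lies within the span of its longer annotated gene on chromosome 7, holds none of these letters, which says nothing of its regulation elsewhere. Of all 35116 RefSeq windows of this length, 13.6% hold at least 1 of the NF-kB forms (consensus 9.96%, palindromic form 4.01%, CXCL8 form 1.45%), 6.57% hold AP-1 and 9.05% hold C/EBP. Only 112 of the 149 higher genes described below had a RefSeq window, under the 80% needed, so a comparison of motif shares over them is void and is not given.

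CXCL8 (ENSG00000169429, chromosome 4, 73740569 to 73743716) stood at 609 CPM (a gene's UMIs scaled to a fixed total of all gene UMIs) in high-score cells, 81.4 CPM in the cells between and 3.19 CPM in low-score cells. CXCL1 (chromosome 4, 73869393 to 73871308) stood at 192, 24.4 and 1.02 CPM. INHBA (chromosome 7, 41685114 to 41705406) stood at 142, 70.1 and 3.71 CPM, so that the cells between held more INHBA relative to the high-score cells than they did CXCL8. CXCL2 and CXCL3 were sparse, at 18.1 and 15.1 CPM in high-score cells and 0.28 and 0.36 CPM in low-score cells. CXCL1, CXCL2 and CXCL3 are close paralogs, and no source used here says how reads shared between them were counted, so the split between these 3 genes is uncertain.

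Of the high-score cells' score UMIs, 62.5% were CXCL8, 19.6% CXCL1 and 14.5% INHBA. A CXCL8 UMI was found in 959 high-score cells (94.5%), an INHBA UMI in 714 (70.3%), a CXCL1 UMI in 639 (63.0%), a CXCL2 UMI in 162 (15.96%) and a CXCL3 UMI in 141 (13.9%). In low-score cells 3.98% had a CXCL8 UMI, at a median depth of 11737 gene UMIs against 12624 in high-score cells. The data hold 1 cell line, so no cell type lacking these genes gives a level for free RNA. The high-score cells, 10% of all cells, held 63.2% of all CXCL8 UMIs, 64.3% of CXCL1 UMIs and 31.4% of INHBA UMIs.

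The score runs without a gap across the cut. It was 4.56 UMIs per 10000 at the cut, reached 72.8 at most, and was 0 in 4535 cells (44.7%). The lowest high-score cell had 3 score UMIs among 6584, and the highest cell outside had 9 among 19791. Within 10% of the cut lay 252 cells, 112 of them inside. The median high-score cell had 10 score UMIs (range 1 to 109), 946 cells (93.2%) had at least 5, and 18 cells were members through a single UMI. The high-score cells are a range of this score cut at a set share, and whether they form a separate group was not tested.

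The score genes were chosen with earlier results of these data known, so whether they go together was not tested here. As a description, each gene was left out of the score in turn and read in cells ranked by the other 4 genes. A gene's own UMIs thus did not pick the cells it was read in. CXCL8 then stood at 398 CPM in the top 10% against 35.0 CPM in the bottom group, 11.3-fold higher (95% interval 10.8 to 11.9). CXCL1 stood at 157 against 6.24 CPM, 25.1-fold higher (22.5 to 28.0). CXCL2 was 11.99-fold higher (9.33 to 15.5) and CXCL3 10.8-fold higher (8.25 to 14.2). All 4 chemokines were thus higher in cells picked by the other score genes. The split of reads between the paralogs CXCL1, CXCL2 and CXCL3 is uncertain, so their folds may not be independent of one another. INHBA stood at 95.96 against 30.7 CPM in cells ranked by the chemokines alone, 3.13-fold higher (2.92 to 3.35), which was a smaller ratio than that of each chemokine. The bottom groups differed, with 5937 cells for INHBA, 5740 for CXCL8 and 5071 for CXCL1, CXCL2 and CXCL3. The folds thus rest on unlike comparison cells. All intervals here on CPM, folds or shares of cells are exact Poisson or binomial ones. They take UMIs or cells as independent, cover counting error only, and leave out variation between cultures. Of the high-score cells, 635 (62.6%) were still in the top 10% without CXCL8 and 871 (85.8%) without INHBA.

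**Figure D1:**
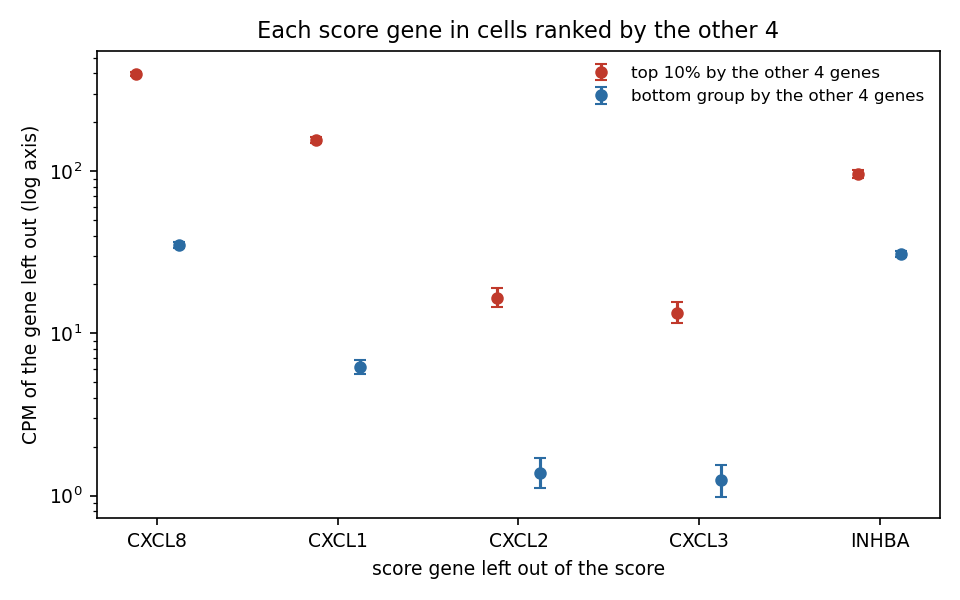
CPM (log axis) of each score gene in cells ranked by the other 4 score genes, in the top 10% (red) and the bottom group (blue); bars are exact 95% Poisson intervals. Red lies above blue for all 5 genes, from 25.1-fold for CXCL1 to 3.13-fold for INHBA.

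Epithelial genes stood at like levels in both groups, apart from CLDN1. Of 19 epithelial genes, 18 differed by less than 1.5-fold, among them the adhesion molecule EPCAM at 267 against 270 CPM in low-score cells, E-cadherin (CDH1) at 49.6 against 50.5 CPM and keratin 7 (KRT7) at 2346 against 2471 CPM. The lung adenocarcinoma markers NKX2-1 and NAPSA were scarce in both groups, with 1 and 6 UMIs in all high-score cells. Of 14 immune markers, 6 were at 0 in high-score cells, the T cell gene CD3E, the myeloid genes LYZ and FCGR3A, the B cell gene MS4A1, the natural killer gene NKG7 and haemoglobin HBB, and the whole list summed to 24.7 CPM, 18.1 CPM of it CD68. Of 11 fibroblast and endothelial markers, 8 were at 0, including the collagens COL1A2 and COL3A1 and the endothelial gene KDR, and the list summed to 5.38 CPM.

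Depth and mitochondrial share differed little. High-score cells had a median of 12624 gene UMIs and 10.2% mitochondrial UMIs, and low-score cells 11737 and 10.7%. Cells where sgRNAs against 2 or more targets reached 5 UMIs, which can be doublets or double infections, made up 8.77% of high-score cells (7.10 to 10.7%) and 9.33% of low-score cells (8.54 to 10.2%). A small set of cells that stands apart from the culture by FABP5, which encodes a fatty acid binding protein, was spread unevenly. Of 311 cells with at least 2 FABP5 UMIs, 5 were high-score cells (0.493% of these) and 249 were low-score cells (4.91%). Of these 311 cells 45 (14.5%) were assigned an sgRNA, against 54.8% of all cells.

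All genes outside the 5 score genes were then compared between high- and low-score cells. Of 7932 genes with at least 10 CPM in the higher group, 149 (1.88%) were at least 1.5-fold higher and 25 (0.315%) at least 1.5-fold lower in high-score cells. The median log2 ratio over all of them was 0.02. Of the 149 higher genes, 116 were higher in each of 6 groups of cells, those assigned to control, ATF4, PGAM1, CTNNB1, JUN and CTCF sgRNAs; MYC had too few high-score cells. Of the 25 lower genes, 16 were lower in each of the 6 groups. These groups are parts of the same cells that set the 149 and the 25, so agreement is partly built in. No such share over all 7932 genes is given, so these counts only describe the spread over groups. With cells thinned to 5000 UMIs before scoring, where 1716 cells fell in the top group, 59 genes were higher and 12 lower, and all of them were among the 149 and the 25. Without the 311 FABP5 cells, 154 were higher and 20 lower, of which 141 were among the 149 and 15 among the 25.

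**Figure D2:**
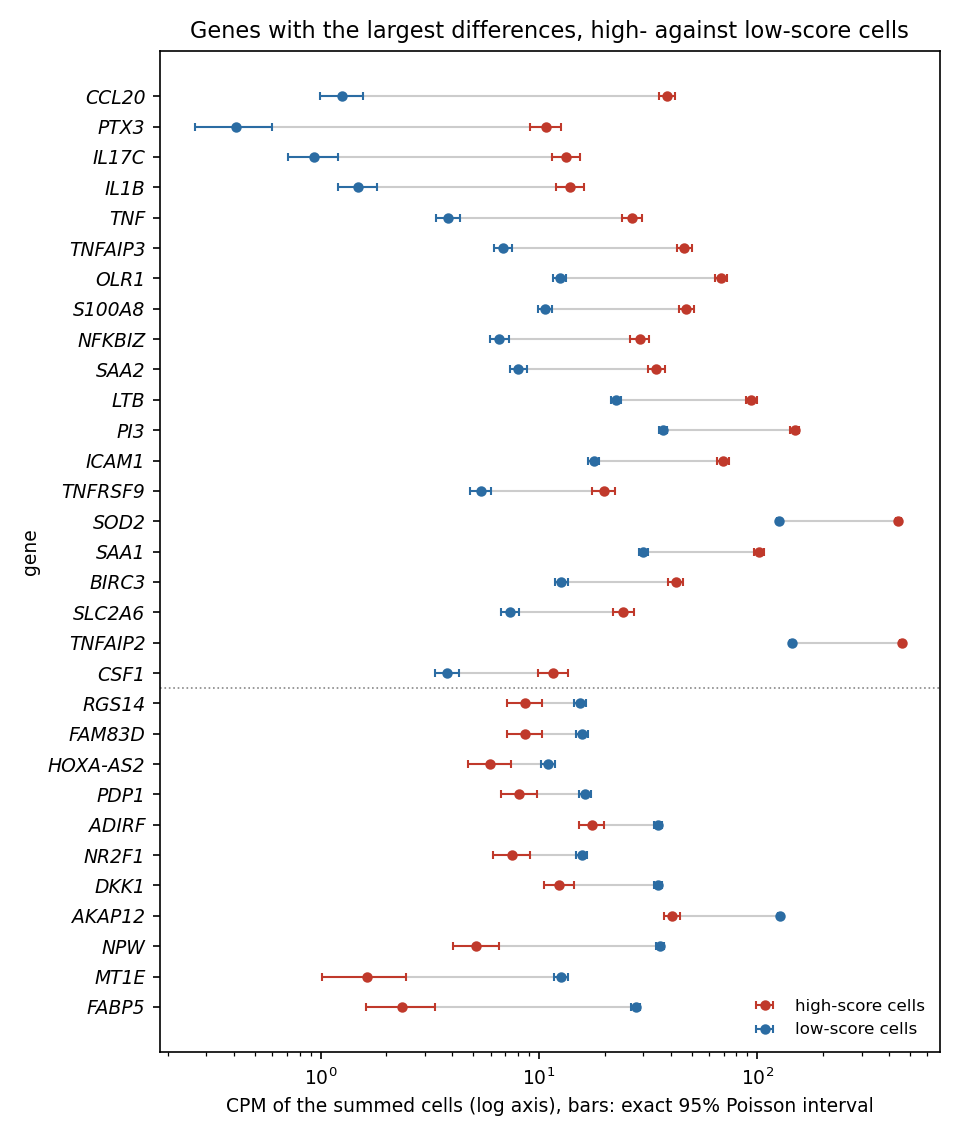
CPM (log axis) of the 20 genes with the largest increase and 11 of the 12 with the largest decrease in high-score cells (red) against low-score cells (blue), the score genes left out; bars are exact 95% Poisson intervals over all cells of the group. CCL20 heads the list at 38.5 against 1.26 CPM and FABP5 closes it at 2.36 against 27.7 CPM.

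Further cytokines were higher in the cells selected for 4 chemokines and activin. Of 12 chemokine and cytokine genes with enough UMIs, 7 were at least 1.5-fold higher (58.3%, against 1.88% of all genes compared), none was lower and the median log2 ratio was 0.76. CCL20, a chemokine for dendritic cells and Th17 lymphocytes, had the largest ratio of all genes, at 38.5 against 1.26 CPM, 30.6-fold (24.2 to 39.2). Its UMIs came from few cells: 16.8% of high-score and 1.28% of low-score cells had one. In high-score cells CCL20 stood at 36.4 CPM with control sgRNAs, 20.1 with ATF4, 49.9 with PGAM1, 35.1 with CTNNB1, 55.7 with JUN and 78.5 with CTCF sgRNAs, and in low-score cells at 0.79 to 2.99 CPM. CCL20 was picked from these same cells, so these values only describe its spread over the groups.

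IL1B (interleukin 1 beta) and TNF, cytokines that themselves switch on NF-kB, were both among the 20 largest increases. IL1B stood at 13.9 against 1.48 CPM, 9.38-fold higher (7.29 to 12.2), and TNF at 26.6 against 3.84 CPM, 6.94-fold higher (5.88 to 8.20). IL17C, an epithelial cytokine of host defence, was 14.3-fold higher (10.6 to 19.5), at 13.3 against 0.93 CPM. LTB (lymphotoxin beta) was 4.17-fold higher (3.86 to 4.50), at 93.7 against 22.5 CPM, and CSF1, a growth factor of macrophages, 3.06-fold higher (2.48 to 3.75). IL32, TNFSF15 and LIF had log2 ratios of 1.57, 0.82 and 0.71. The cytokines GDF15, CXCL16, IL11, CCL28 and IL18 did not reach 1.5-fold, with log2 ratios from -0.20 (IL18) to 0.53 (GDF15). Others were too scarce to be counted. IL6 stood at 0.81 CPM in high-score and 0.079 CPM in low-score cells (11 and 5 UMIs). CXCL10 stood at 3.54 against 0.33 CPM (48 and 21 UMIs) and IL1A at 2.29 against 0.31 CPM (31 and 20 UMIs). CXCL5, the closest relative of the CXCL1 group, had 2 and 0 UMIs. Some scarce members went the other way, such as TNFSF10 at 2.29 against 2.75 CPM.

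The NF-kB list held more of the higher genes than each of the other lists. Of 28 NF-kB factors, inhibitors and targets with enough UMIs (34 in the list), 18 were at least 1.5-fold higher (64.3%) and none was lower, with a median log2 ratio of 0.76. Several inhibitors that NF-kB switches on to end its own activity were among them. TNFAIP3 (A20), which removes ubiquitin chains upstream of NF-kB, stood at 46.2 against 6.85 CPM, 6.74-fold higher (5.95 to 7.63). In high-score cells it ranged from 38.5 CPM (CTCF sgRNAs) to 64.7 CPM (ATF4 sgRNAs) and in low-score cells from 4.03 to 9.97 CPM over the 6 groups. NFKBIA, an inhibitor of the IkB family, had a log2 ratio of 1.61, and TNIP1, a partner of A20, 1.08. NFKBIZ, a member of the IkB family that is not counted among these inhibitors, had a log2 ratio of 2.13. The inhibitors CYLD, NFKBIB and TNIP2 did not reach 1.5-fold, with log2 ratios of 0.33, 0.25 and 0.19.

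Among the factors themselves the differences were smaller. NFKB1, NFKB2, RELB and BCL3, which are targets of the pathway as well as members of it, had log2 ratios of 0.74, 0.69, 0.74 and 0.60. RELA, the main activating subunit, stood at 35.4 CPM in high-score and 35.3 CPM in low-score cells. IKBKB and IKBKG, genes of the IkB kinase complex, had log2 ratios of -0.16 and -0.02 and did not reach 1.5-fold, nor did REL at 0.55. Among effectors, ICAM1, the adhesion receptor for leukocytes, stood at 69.4 against 17.8 CPM, 3.89-fold higher (3.57 to 4.25), and a UMI of it was found in 50.6% of high-score and 18.0% of low-score cells. SOD2, the mitochondrial superoxide dismutase, was 3.52-fold higher (3.40 to 3.64) at 441 against 125 CPM, BIRC3, an inhibitor of cell death, 3.33-fold (2.99 to 3.72) and TNFAIP2 3.18-fold (3.08 to 3.29). PTX3, a secreted pattern recognition protein, stood at 10.8 against 0.41 CPM, 26.3-fold higher (17.3 to 41.7).

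**Figure D3:**
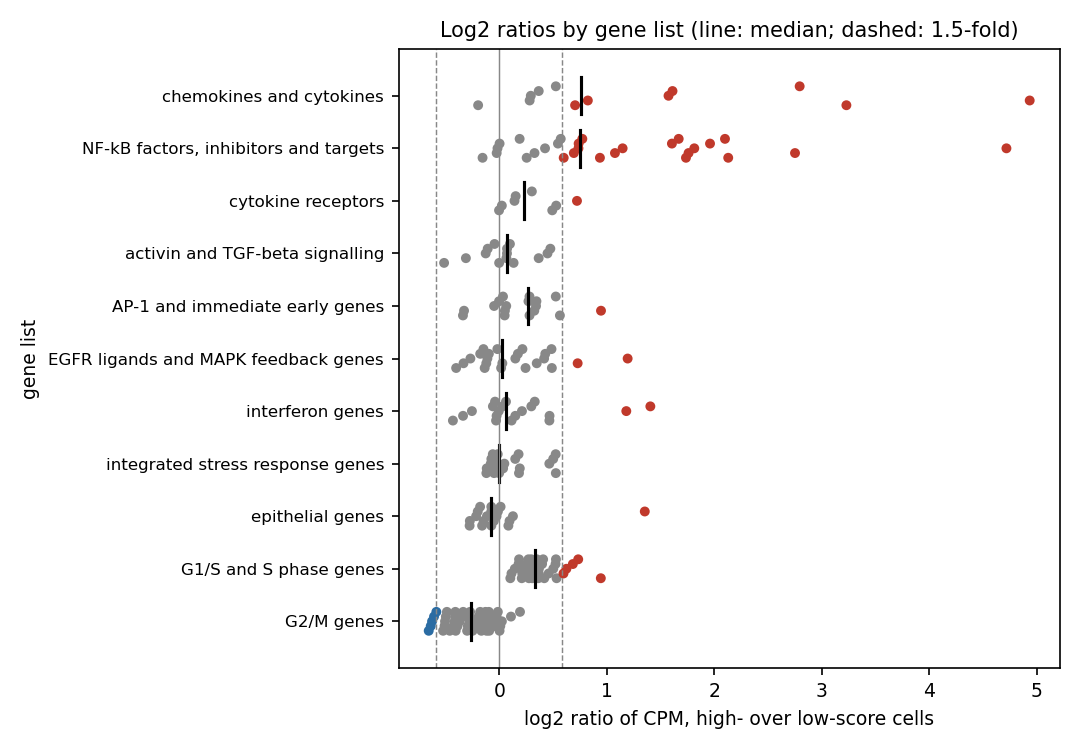
Log2 ratio of CPM, high- over low-score cells, of each member of 11 gene lists with at least 10 CPM in the higher group; each point is a gene (red at least 1.5-fold higher, blue at least 1.5-fold lower, grey neither), black lines are list medians and dashed lines mark 1.5-fold. Chemokines and NF-kB genes have medians of 0.76 each, G1/S genes lie above 0 and most G2/M genes below it.

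Single genes of the acute phase and of antimicrobial defence were among the higher genes, while the list of PSCA, CEACAM and other mucosal surface genes held none (0 of 12, median log2 ratio -0.20). The serum amyloid genes SAA1 and SAA2, which are near-identical copies and whose split is uncertain, had log2 ratios of 1.76 and 2.10. PI3 (elafin), an inhibitor of neutrophil elastase, stood at 148 against 36.9 CPM, 4.01-fold higher (3.78 to 4.26), and SLPI, an inhibitor of the same class, at 532 against 343 CPM. S100A8 and S100A9, the 2 subunits of calprotectin, had log2 ratios of 2.15 and 1.297, whereas the other 9 of 11 S100 genes compared did not reach 1.5-fold and the list's median was -0.10. LCN2 (lipocalin 2), which binds bacterial iron carriers, was 1.91-fold higher (1.88 to 1.95) at 1067 against 557 CPM. S100A8 and SAA2 did not keep their direction in PGAM1 sgRNA cells, with S100A8 at 18.7 CPM in 39 high-score and 30.9 CPM in 159 low-score cells, and the cytokine CSF1 did not in ATF4 sgRNA cells (2.62 against 4.13 CPM, from 3 and 21 UMIs). Of 20 genes of proteases, their inhibitors and coagulation, PI3, SLPI, PLAU (urokinase, log2 ratio 1.17) and SERPINE2 (0.87) were at least 1.5-fold higher and none was lower. OLR1, a scavenger receptor for oxidised lipoprotein, was 5.47-fold higher (4.97 to 6.03), at 68.15 against 12.5 CPM.

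Receptors for the secreted factors differed little. Of 8 cytokine receptor genes, OSMR, the receptor of oncostatin M, was at least 1.5-fold higher (19.7 against 11.9 CPM), and the median log2 ratio was 0.23. TNFRSF1A, the main TNF receptor, stood at 47.4 against 47.5 CPM. CXCR1 and CXCR2, the receptors of CXCL8, had no UMI in the high-score cells, and 0 and 1 UMI in low-score cells. TNFRSF9 (CD137), a receptor outside that list, was 3.67-fold higher (3.12 to 4.32), at 19.8 against 5.41 CPM.

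Although INHBA helped to select the cells, other genes of the activin and TGF-beta pathway with at least 10 CPM did not reach 1.5-fold. Of 14 compared (29 in the list), none was higher or lower by that rule, and the median log2 ratio was 0.07. SMAD3, which carries the signal to the nucleus, stood at 41.5 against 32.2 CPM and the inhibitory target SKIL at 70.8 against 70.9 CPM. ID1 and ID3, targets of the related BMP pathway, went in opposite directions, with log2 ratios of -0.51 and 0.45. INHBB, the other activin subunit, stood at 48.5 against 46.2 CPM. Among members too scarce to be counted, follistatin (FST), which binds activin, stood at 3.25 against 2.99 CPM (44 and 190 UMIs). TGFB2 stood at 4.79 against 2.34 CPM (65 and 149 UMIs) and ACVR1 at 2.36 against 3.14 CPM (32 and 200 UMIs).

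Lists of other growth pathways are read against the 1.88% of all genes that were higher. HBEGF and EREG, ligands of EGFR, had log2 ratios of 1.19 and 0.73, and the remaining 21 of 23 genes of EGFR ligands and MAPK feedback did not reach 1.5-fold, with a median of 0.03. EGFR itself stood at 474 against 352 CPM, AREG at 115 against 102 CPM and DUSP6, a feedback phosphatase of MAPK, at 39.3 against 35.4 CPM. Of 17 AP-1 and immediate early genes MAFF was at least 1.5-fold higher (34.4 against 17.9 CPM). JUN stood at 73.6 against 71.9 CPM and FOS at 78.2 against 98.2 CPM. Of 10 YAP and TEAD targets 3 were higher, ANKRD1, WWC1 and AMOTL2, a larger share than the 1.88% over all genes, with log2 ratios of 0.89, 0.80 and 0.66. CLDN1, a tight junction protein, was the 1 of 19 epithelial genes past 1.5-fold, at 74.0 against 29.0 CPM. None of 6 mesenchymal genes reached it, and of 20 integrin and matrix genes ITGAV and FN1 (fibronectin) did, at log2 ratios of 0.71 and 0.68.

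Stress and metabolic lists held between 0 and 2 genes past 1.5-fold each. None of 21 integrated stress response genes, 14 endoplasmic reticulum stress genes, 7 hypoxia genes, 13 cholesterol synthesis genes, 14 glycolysis genes and 13 mitochondrially encoded genes reached it, and ATF4 stood at 343 against 346 CPM. Of 19 interferon genes, IRF1 and GBP2, which answer interferon gamma, were higher at log2 ratios of 1.41 and 1.18. The other 17 ranged from -0.43 (ISG15) to 0.47 (OAS3), with 9 of them above 0. The 9 HLA class I and antigen presentation genes with at least 10 CPM had log2 ratios above 0, as did 4348 of all 7932 genes, from 0.0086 to 0.43 (TAP1, a peptide transporter), and none reached 1.5-fold. Of the 3 members under that minimum HLA-B was lower, at 4.13 against 9.18 CPM (56 and 584 UMIs), HLA-F stood at 3.54 against 3.90 CPM and NLRC5 at 3.69 against 3.30 CPM. Of 17 NRF2 targets, the aldo-keto reductases AKR1C1 and AKR1B1 were higher, AKR1C1 at 773 against 407 CPM. AKR1C1 has near-identical relatives, so its count is uncertain. BBC3 was the 1 of 11 p53 targets past 1.5-fold, at 28.5 against 17.3 CPM. The interferon, NRF2 and p53 lists thus held a larger share of higher genes than the 1.88% over all genes, from 1 or 2 genes each.

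Cell cycle genes differed in 2 directions. All 36 G1/S and S phase genes compared had log2 ratios above 0 (median 0.33), and EXO1, CDCA7, WDR76, MCM2 and MCM6, genes of DNA replication and repair, were at least 1.5-fold higher (5 of 36, against 1.88% of all genes). Of 50 G2/M genes, 5 were at least 1.5-fold lower (0.315% of all genes were), the mitotic genes CDC20, AURKA, CCNB2, CDCA8 and DLGAP5, and the median was -0.26. CDC20 stood at 39.7 against 62.6 CPM. By cell cycle score in cells thinned to 5000 UMIs, 18.4% of 977 high-score cells (16.04 to 21.0%) and 9.78% of 4900 low-score cells (8.96 to 10.6%) were called S. G2/M calls made up 25.1% (22.4 to 27.9%) and 33.2% (31.9 to 34.6%), and G1 calls 56.5% and 56.98%. Unthinned, the S calls were 203 and 508 cells, and 38 high-score and 171 low-score cells were too shallow to thin. Among G1-scored cells alone, 180 genes were at least 1.5-fold higher and 129 of these were among the 149, and WDR76 turned to -0.17. In G1-scored cells CCL20 had a log2 ratio of 5.34, TNFAIP3 of 2.73 and SOD2 of 2.00.

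The lower genes were few, and several of them had their highest levels in the FABP5 cells. FABP5 stood at 2.36 against 27.7 CPM, 11.7-fold lower, and MT1E (a metallothionein), NPW (a neuropeptide), AKAP12 (a scaffold of protein kinase A) and DKK1 (a Wnt inhibitor) had log2 ratios of -2.96, -2.79, -1.64 and -1.49. In the 311 FABP5 cells AKAP12 stood at 1937 CPM, against 36.6 CPM in all other cells, and NPW at 652 against 4.74 CPM. Without these cells the log2 ratio of AKAP12 was -0.04, of DKK1 -0.32 and of PDP1 0.23, so that these 3 genes were no longer 1.5-fold lower; that of FABP5 itself is set by the filter. MT1E and NPW had log2 ratios of -1.53 and -1.06, at only 1.05 and 4.74 CPM over the cells without the FABP5 set, and of -0.40 and -0.32 in cells assigned to a single sgRNA. In cells with control sgRNAs AKAP12 stood at 32.1 CPM in high- and 29.8 CPM in low-score cells. Ratios without the FABP5 cells were -0.82 for FAM83D, a mitotic gene, -0.85 for RGS14 and -0.93 for HOXA-AS2. The largest increases moved little: CCL20 had a log2 ratio of 4.91 without the FABP5 cells and 4.94 with them, and TNFAIP3 2.74 and 2.75. Some smaller ratios moved more, such as that of EREG, at 1.07 without these cells and 0.73 with them. CDKN1A (0.77 and 0.37), GDF15 (0.63 and 0.53), CHAC1 (0.62 and 0.52) and FOSL2 (0.59 and 0.56) passed 1.5-fold only without them. AKR1B1 (0.57 and 0.61) passed it only with them. The list counts given above include the FABP5 cells. In the FABP5 cells CXCL8 stood at 29.6 CPM and INHBA at 12.4 CPM, against 99.6 and 46.7 CPM in all other cells.

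Across 7 ranges of the score, the genes outside it followed different courses. CCL20 stood at 1.09 CPM in the 4535 cells without a score UMI, at 4.84 CPM between the 70th and 80th percentile, at 17.6 CPM between the 90th and 95th and at 158.9 CPM in the 103 cells of the top 1%. PTX3 stood at 0.41, 0.76, 2.74 and 61.1 CPM in the same ranges, and IL1B at 1.45, 2.97, 5.33 and 68.1 CPM, so that their levels in the top 1% stood far above those of the next ranges. SOD2 and TNFAIP3 were graded over the whole range. SOD2 stood at 116 CPM without a score UMI, 231 CPM between the 70th and 80th percentile, 363 CPM between the 90th and 95th and 824 CPM in the top 1%, and TNFAIP3 at 6.27, 19.9, 37.6 and 77.5 CPM. LCN2 stood at 508 CPM without a score UMI, 1062 CPM between the 70th and 80th percentile and 913 CPM in the top 1%, so that its level did not go on with the score. INHBA, itself in the score, stood at 80.3 CPM between the 70th and 80th percentile and 191 CPM in the top 1%, and CXCL8 at 81.1 and 1785 CPM.

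**Figure D4:**
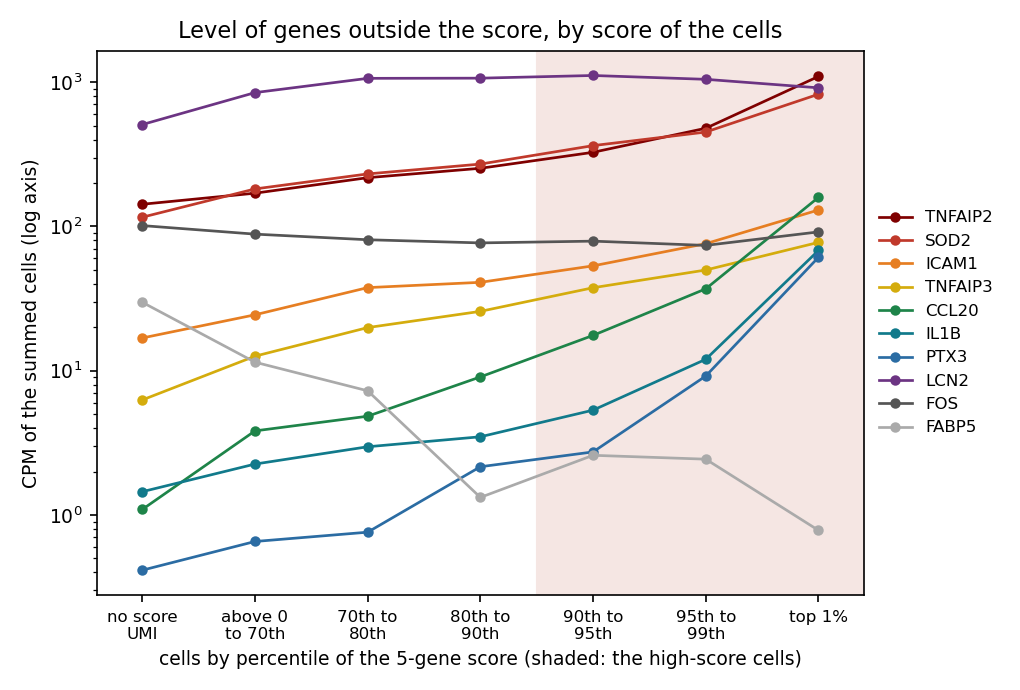
CPM (log axis) of 10 genes outside the score in cells grouped by score percentile, from no score UMI to the top 1%; the shaded ranges are the high-score cells. CCL20, IL1B and PTX3 climb most within the shaded ranges, SOD2 and TNFAIP3 climb throughout, LCN2 levels off and FOS shows no climb.

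High-score cells were also divided by which transcripts were caught. There were 666 high-score cells with both CXCL8 and INHBA UMIs, 293 with CXCL8 only, 48 with INHBA only and 8 with neither, the last with a median of 1579 gene UMIs. TNFAIP3 stood at 48.4 CPM (44.1 to 53.1) in cells with both and 42.7 CPM (36.4 to 49.7) in cells with CXCL8 only, and ICAM1 at 68.7 and 75.5 CPM. OLR1 was higher in cells with both, at 75.2 CPM (69.7 to 81.0) against 55.4 CPM (48.2 to 63.4), whereas PI3 was lower, at 136 CPM (129 to 144) against 182 CPM (169 to 196). The 48 cells with INHBA and no CXCL8 had a median of 5 score UMIs, against 10 in cells with both. SOD2 stood at 209 CPM (167 to 259) against 433 CPM in cells with both, and ICAM1 at 29.5 CPM (15.3 to 51.6). S100A8 went the other way, at 78.7 CPM (53.9 to 111) against 39.4 CPM, and NFKB2 stood at 46.8 CPM (28.2 to 73.0) against 35.5 CPM. They still lay above low-score cells in SOD2 (125 CPM) and TNFAIP2 (305 against 144 CPM), and their median depth was 9192.5 UMIs. These classes depend on whether a UMI was caught, and a cell without an INHBA UMI need not lack the transcript.

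Whether the targeted genes bear on how many cells reach a high score was asked across sgRNAs, a comparison that the selection did not use. Among the 4 non-targeting sgRNAs, 9.67, 9.15, 13.2 and 12.99% of cells were high-score cells, 11.3 ± 2.14% (SD, n = 4 sgRNAs). The lowest, median and highest shares were 4.12, 9.29 and 12.8% for the 6 ATF4 sgRNAs, 7.14, 9.07 and 13.6% for the 6 JUN sgRNAs, 4.17, 9.14 and 10.9% for the 6 CTCF sgRNAs and 9.15, 9.93 and 18.75% for the 6 CTNNB1 sgRNAs. The 4 PGAM1 sgRNAs gave 13.5, 11.1, 13.1 and 10.4%, and the 2 MYC sgRNAs with at least 20 cells 13.04 and 15.6%. The range of each target overlapped that of the controls, and 1 of the 2 MYC sgRNAs lay above all controls.

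No target passed a two-sided exact permutation test over sgRNAs against the controls. CTCF sgRNAs had the lowest mean share, 8.48 ± 2.57%, 2.78 percentage points under the controls and under their mean in 6 of 6 sgRNAs (exact permutation p = 0.11; 0.41 after Benjamini-Hochberg adjustment over 6 targets). ATF4 was 2.19 points lower (exact p = 0.24, adjusted 0.41) and JUN 1.74 points lower (exact p = 0.28, adjusted 0.41). PGAM1 was 0.77 points higher (exact p = 0.54, adjusted 0.65), CTNNB1 0.18 points higher (exact p = 0.97) and MYC 3.05 points higher (exact p = 0.27, adjusted 0.41; 0.13 is the smallest p that 2 against 4 sgRNAs allow). Single shares rest on few cells: CTCF sgRNA 3, with 2 high-score cells of 48, has an interval of 0.509 to 14.3%. All sgRNAs came from 1 culture, so p-values speak of variation from sgRNA to sgRNA within it, some of which may be technical.

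**Figure D5:**
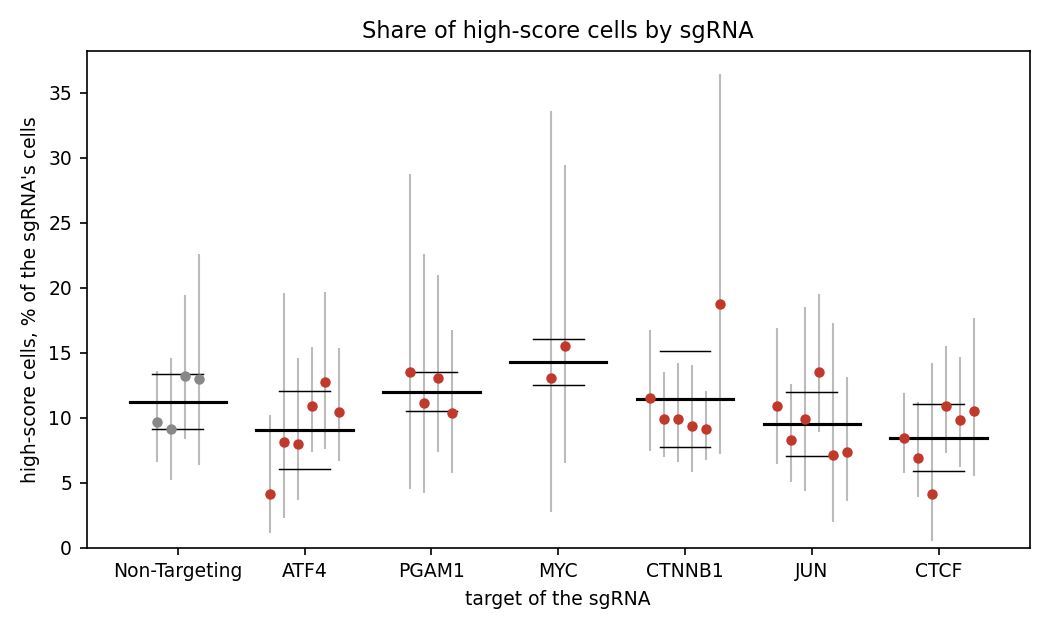
Percent of cells of each sgRNA that are high-score cells, by target; points are sgRNAs with exact 95% binomial intervals, long lines are means and short lines 1 SD. The control sgRNAs lie between 9.15 and 13.2%, and every target's range overlaps them.

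Levels of the 5 score genes were also compared between target and control sgRNAs in all cells of each sgRNA, without the score. In edgeR's quasi-likelihood test over 11570 genes with Benjamini-Hochberg adjustment, 203 genes (1.75%) were called with ATF4 sgRNAs, 45 (0.389%) with PGAM1, 32 (0.277%) with MYC, 1 (0.00864%) with CTNNB1, 1 (0.00864%) with JUN and 3 (0.0259%) with CTCF sgRNAs. None of the 5 score genes was among them for any target. Of the targeted transcripts, PGAM1, CTNNB1 and ATF4 were lower with their own sgRNAs (log2 fold change -1.66, -0.90 and -0.51; edgeR adjusted p = 8.5e-24, 9.97e-05 and 6.6e-07), whereas JUN and CTCF were not called (-0.14 and -0.18). MYC was not called either and stood higher with its own sgRNAs, at 86.7 and 141.9 CPM against 63.1 to 72.6 CPM with the controls (log2 fold change 0.62, edgeR adjusted p = 0.48), so the MYC sgRNAs are named here by their label only.

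CXCL8 stood at 107, 125, 116 and 116 CPM with the 4 control sgRNAs. With the JUN sgRNAs it ranged from 44.0 to 130 CPM (median 89.4), a log2 fold change of -0.40 ± 0.15 (SE; edgeR adjusted p = 1.0), and 4 of 6 sgRNAs lay under all controls. With the ATF4 sgRNAs it ranged from 62.7 to 112 CPM (median 96.3; log2 fold change -0.32, adjusted p = 0.34), and with the CTCF sgRNAs from 32.0 to 153 CPM (median 90.03; -0.31, adjusted p = 0.78). These 3 calls turn on the filter on low counts. Without the filter the edgeR adjusted p for CXCL8 was 0.00055 with JUN, 0.0055 with ATF4 and 0.021 with CTCF sgRNAs, at log2 fold changes of -0.42, -0.32 and -0.31. It was 0.026 for ATF4 when only ATF4 and control sgRNAs were fitted. The 2 MYC sgRNAs stood at 220.4 and 153 CPM, above all controls (0.61, adjusted p = 0.63), and 0.047 when only MYC and control sgRNAs were fitted. CTNNB1 and PGAM1 sgRNAs had log2 fold changes of -0.21 and 0.03.

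INHBA stood at 52.5, 57.9, 48.2 and 42.4 CPM with the control sgRNAs and its order over targets differed from that of CXCL8. With ATF4 sgRNAs it was above the control mean in 5 of 6 sgRNAs (log2 fold change 0.10, edgeR adjusted p = 0.85), where CXCL8 was below it in 6 of 6. With JUN sgRNAs it was below the mean in 6 of 6 (-0.32, edgeR adjusted p = 1.0). With CTCF sgRNAs it ranged from 1.60 to 52.3 CPM (-0.23, adjusted p = 0.87). CXCL1 had log2 fold changes from -0.40 (ATF4) to 0.82 (MYC), none of them called.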

How the data were processed

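The authors deposited raw UMI counts in 1 joint 10x matrix of gene expression and sgRNA capture from 1 PC9 culture, and the file headers name Cell Ranger 6.1.2. The genome build is hg38 per the submitters' processing notes, and no source used here names the annotation. Of 10847 barcodes with 136071789 gene UMIs and 158909 sgRNA UMIs, 10142 were kept (at least 1000 gene UMIs and 500 genes, at most 20% mitochondrial UMIs), with a median of 12239.5 gene UMIs. No doublet caller was run.

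The score, its groups and CPM were computed from these counts. A gene was counted as higher or lower at 1.5-fold or more with at least 10 CPM in the higher group and 10 UMIs in all. A cell was assigned to an sgRNA with at least 5 UMIs making up 80% of its sgRNA UMIs (5556 cells), and sgRNAs with at least 20 cells were compared. Shares were compared by exact permutation over sgRNAs, and counts summed per sgRNA by edgeR 4.0.16 (quasi-likelihood, TMM, low counts filtered), with DESeq2 1.42.0 as an alternative. Python 3.11.15, scanpy 1.11.5, scipy 1.17.1 and R 4.3.3 were used, and the scripts were tested on simulated data. Alternatives changed the group sizes, the score, depth, cell cycle phase, filters, scaling, the sgRNA rule and the sgRNAs included. 2 of them, without FABP5 cells and without cells with sgRNAs of 2 or more targets, were chosen after seeing the data.

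Genes named are the 5 score genes, the 20 highest and 12 lowest ratios, up to 4 members of each list with the largest ratios, members of the chemokine, NF-kB and activin lists by role, and each targeted transcript; a few are not reported here. Some further members of lists are named for their known role, chosen after their values were seen. The members, the gene lists and this rule were chosen with earlier results of these data known. Of 36601 gene IDs, 36366 matched the gene name table.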

Additional observations from a re-analysis of the deposited data

Results flagged for a closer look

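Of 36 groups of sgRNAs examined for 1 value standing far from the others, 4 were picked out, and chance picks out about 1 in 20 groups. For CTNNB1 sgRNA 6, which had 32 cells, 18.75% were high-score cells (the nearest CTNNB1 sgRNA had 11.5%), CXCL8 stood at 177.5 CPM (nearest 107.3 CPM) and CXCL2 was at 0 CPM (nearest 3.28 CPM). For CTCF sgRNA 6, CXCL1 stood at 64.3 CPM (nearest 30.6 CPM).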

How the results depend on the processing

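Against 149 higher genes, 91 were counted with the top 20% of cells, 89 against all other cells, 59 with the thinned score, 76 at 30 CPM or more and 994 with no minimum. Against 25 lower genes, 76 were counted with the top 5% of cells, 11 against all other cells, 12 with the thinned score, 72 in cells with 8000 to 16000 UMIs, 38 in G1-scored cells, 59 in cells assigned to a single sgRNA, 39 with per-cell means, 13 at 30 CPM or more, 1533 with no minimum and 39 without cells with sgRNAs of 2 or more targets. Lower genes made up 14.4% of all counted, and 25.7% with the top 5%, 29.3% at 8000 to 16000 UMIs, 24.4% with a single sgRNA and 60.7% with no minimum. PDP1 turned to 0.11 in cells assigned to a single sgRNA and 0.23 without FABP5 cells, and WDR76 to -0.17 in G1-scored cells. The 20 genes with the largest increase kept their direction under each of these alternatives.

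Share differences from the controls, in percentage points, turned with the top 20% of cells for ATF4 (1.03), PGAM1 (-0.43) and MYC (-1.34), and with the top 5% for PGAM1 (-0.28) and CTNNB1 (-1.64). They turned with the thinned score for PGAM1 (-1.30), MYC (-1.28) and CTNNB1 (-1.09), at 10% mitochondrial UMIs or less for PGAM1 (-4.88) and CTNNB1 (-3.00), in G1-scored cells for CTNNB1 (-1.68) and under the stricter sgRNA rule for JUN (0.28). Others grew: CTCF to -5.24 with the thinned score and -5.05 in G1-scored cells (exact permutation p = 0.038, adjusted 0.23), ATF4 to -4.86 in G1-scored cells and -3.06 with the top 5% (exact permutation p = 0.029, adjusted 0.17), PGAM1 to 4.77 in G1-scored cells, JUN to -3.01 at 10% mitochondrial UMIs or less and CTNNB1 to 0.98 with the top 20%. MYC stood at 4.92 in G1-scored cells and 8.12 under the stricter sgRNA rule, each from 1 MYC sgRNA. No adjusted p of these alternatives was under 0.05. At 10% mitochondrial UMIs or less no value could be had for MYC. Leaving out 1 sgRNA at a time gave -1.28 (without CTNNB1 sgRNA 6) to 0.83 for CTNNB1.

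Genes called by edgeR under the stricter sgRNA rule were 94 for ATF4, 26 for PGAM1, 1 for MYC, 2 for CTNNB1, 0 for JUN and 0 for CTCF. Fits with only the target's and control sgRNAs called 308, 76, 51, 6, 4 and 0. Without the filter on low counts 91 were called for PGAM1, 5 for CTNNB1, 15 for JUN and 37 for CTCF, and by DESeq2 83 for MYC, 0 for JUN and 0 for CTCF. At an unadjusted p under 0.05, edgeR gave 536 genes for JUN and 721 for CTCF, of 11570 tested. Chance alone gives counts of this order at that threshold, so they are not counts of changed genes. Leaving out 1 sgRNA at a time gave 133 to 234 for ATF4, 19 to 36 for PGAM1, 4 to 39 for MYC, 1 to 2 for CTNNB1, 0 to 3 for JUN and 0 to 24 for CTCF. Under the stricter rule log2 fold changes turned for CXCL2 with ATF4 (0.088), CXCL1 with PGAM1 (0.35), CXCL1, CXCL2 and INHBA with CTNNB1 (0.048, 0.019 and 0.0049) and CXCL1 with CTCF sgRNAs (0.075). Leaving out 1 sgRNA turned CXCL2 with ATF4 (-0.96 to 0.18), PGAM1 (-0.64 to 0.51), MYC (-0.47 to 0.77), CTNNB1 (-0.87 to 0.27) and JUN (-1.07 to 0.071), CXCL1 with PGAM1 (-0.44 to 0.079) and CTCF (-0.30 to 0.066), CXCL8 with PGAM1 (-0.10 to 0.13), and CXCL3 and INHBA with MYC sgRNAs (-1.21 to 0.57 and -0.48 to 0.065). The cause was not tested. No paired analysis was possible because sgRNA numbers only name the sgRNAs of a target and all cells share 1 culture.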

Other observations

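CTCF sgRNA 3 had 48 assigned cells, 2 of them high-score cells. Its cells held 1 INHBA UMI (1.60 CPM), where the other 5 CTCF sgRNAs stood at 33.0 to 52.3 CPM. CXCL8 stood at 32.0 CPM and CXCL1 at 11.2 CPM, the lowest of the 6 CTCF sgRNAs, and CXCL3 at 12.8 CPM, the highest.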
